A study of Mus musculus with 12 samples.

Results

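The genes described here are 10 genes of MHC class I antigen presentation, chosen by name from the count table of a mouse retina RNA-seq study: the class I heavy chains H2-D1, H2-K1 and H2-T23, the light chain B2m, the peptide transporter subunits Tap1 and Tap2, the loading factor Tapbp, the immunoproteasome subunits Psmb8 and Psmb9, and the transcriptional activator Nlrc5. All 10 were found among the 56748 genes of the table, and all 10 passed the filter on low counts that left 18334 genes to test. Messenger RNA from 12 whole retinas was sequenced, 3 retinas from separate mice in each of 4 groups. The groups were wild-type C57BL/6J at 4 weeks and at 8 weeks of age, and JR5558 at the same ages. JR5558 is an inbred line known for spontaneous new vessel growth in the outer retina and for mutations in Crb1 and Jak3 (background knowledge, not from the labels). The labels name no treatment for any group.

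MHC class I molecules are assembled in the endoplasmic reticulum from a polymorphic heavy chain and the invariant light chain B2m, and display peptides from inside the cell to CD8 T cells and natural killer cells. Proteasomes cut the peptides, the Tap1-Tap2 transporter carries them across the membrane, and Tapbp (tapasin) holds the empty heavy chain beside the transporter while a peptide is loaded. Interferons raise the whole set through Nlrc5 and Irf1, and exchange the constitutive proteasome subunits for Psmb8, Psmb9 and Psmb10. The healthy retina is known as a tissue of low class I display.

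The 5 promoters shown first are those of the genes the results turn on and of 2 for contrast, H2-T23 and Tap1. Each is the 250 bases before the annotated start, 5′ to 3′ on the gene's own strand, from RefSeq on GRCm38.p6. Capitals mark matches, on either strand, to 4 motifs: the core of the interferon-stimulated response element (GAAA, any 2 bases, GAAA), kappa B (GGG, any 2 bases, T, any 2 bases, CC), the Y box (CCAAT) and the core of the cyclic AMP response element (TGACG). Matches to kappa B overlap one another in H2-D1 and H2-K1.
H2-D1, chr17:35262844-35263093, plus strand: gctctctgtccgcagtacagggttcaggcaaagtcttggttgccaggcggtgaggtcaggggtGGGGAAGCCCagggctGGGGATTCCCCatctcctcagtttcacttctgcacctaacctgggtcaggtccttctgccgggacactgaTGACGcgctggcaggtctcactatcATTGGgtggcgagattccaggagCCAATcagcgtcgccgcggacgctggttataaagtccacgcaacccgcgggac
H2-K1, chr17:34000348-34000597, minus strand: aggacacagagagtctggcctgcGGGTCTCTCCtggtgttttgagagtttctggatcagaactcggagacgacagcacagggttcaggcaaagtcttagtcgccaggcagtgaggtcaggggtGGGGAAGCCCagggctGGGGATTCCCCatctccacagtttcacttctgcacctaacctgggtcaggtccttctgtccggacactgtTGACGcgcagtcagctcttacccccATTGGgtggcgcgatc
B2m, chr2:122147437-122147686, plus strand: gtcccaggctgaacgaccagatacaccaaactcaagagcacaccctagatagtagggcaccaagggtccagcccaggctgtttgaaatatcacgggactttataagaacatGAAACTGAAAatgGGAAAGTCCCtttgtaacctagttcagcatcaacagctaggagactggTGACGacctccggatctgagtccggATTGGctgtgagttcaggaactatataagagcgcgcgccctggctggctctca
H2-T23, chr17:36032702-36032951, minus strand: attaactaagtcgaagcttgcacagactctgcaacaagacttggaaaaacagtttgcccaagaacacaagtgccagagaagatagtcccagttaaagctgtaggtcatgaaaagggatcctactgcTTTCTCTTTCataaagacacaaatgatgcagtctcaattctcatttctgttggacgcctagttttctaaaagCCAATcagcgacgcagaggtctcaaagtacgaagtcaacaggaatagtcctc
Tap1, chr17:34187306-34187555, plus strand: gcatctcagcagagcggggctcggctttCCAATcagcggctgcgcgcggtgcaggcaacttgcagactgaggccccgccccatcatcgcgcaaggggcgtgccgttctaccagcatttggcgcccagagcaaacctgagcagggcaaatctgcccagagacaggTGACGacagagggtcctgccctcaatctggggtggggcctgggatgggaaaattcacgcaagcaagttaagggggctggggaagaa
A match to the interferon core stood in B2m and H2-T23, against 2.98% of 32851 mouse promoters of the same length. Kappa B letters stood in H2-D1, H2-K1 and B2m, against 15.9% of promoters. In those same 3 promoters a TGACG was followed by the complement of the Y box, ATTGG, with exactly 20 bases between them. This spacing was measured in these 3 promoters only, so its share over all promoters is not known here. H2-D1 and H2-K1 had an unbroken run of 47 identical bases, which held 2 of the kappa B stretches. The Tap1 and Psmb9 windows are 225 bases of the same DNA read from opposite strands, since both genes start from that interval. A Y box was matched in 7 of the 8 genes found in the promoter table, all but Psmb8, against 33.8% of promoters, and TGACG in 5, against 17.8%. A match is a string of letters and does not show that a factor binds there. Only these exact letters were searched, and variants of each motif were not. The lack of an interferon match in H2-D1 and H2-K1 therefore does not show that they lack such an element. The promoters of Tap2 and Nlrc5 were not used here.

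Per length of gene, B2m and H2-D1 were the most abundant of the 10 transcripts. On the RPKM scale (CPM, counts scaled to a common library total, divided by the deposited gene length in kilobases), the mean over all 12 libraries was 38.9 ± 11.6 for B2m, 33.3 ± 11.9 for H2-D1, 16.3 ± 1.53 for Tapbp and 15.3 ± 5.11 for H2-K1 (SD, n = 12). Tap2 at 2.03 ± 0.372, H2-T23 at 1.83 ± 0.324, Tap1 at 0.815 ± 0.186, Psmb8 at 0.808 ± 0.322, Psmb9 at 0.498 ± 0.178 and Nlrc5 at 0.166 ± 0.0663 followed (RPKM, SD, n = 12). B2m and H2-D1 lay within 1 SD of each other, as did Tapbp and H2-K1, Tap2 and H2-T23, and Tap1 and Psmb8. Within libraries, B2m was above H2-D1 in all 6 C57BL/6J retinas and in 2 of the 6 JR5558 retinas. Tapbp was above H2-K1 in all 6 C57BL/6J retinas and below it in all 3 JR5558 retinas of 8 weeks. Tap2 was above H2-T23 in 8 of 12 libraries and Tap1 above Psmb8 in 7 of 12. Tapbp varied least, with a highest library 1.43 times its lowest, and Psmb9 most, at 5.14 times, from 0.491 to 2.53 CPM. Psmb9 rested on 10 to 58 reads per library and Nlrc5 on 12 to 51, against 916 to 3065 for H2-D1, and the standard errors of their log2 strain differences at 4 weeks were 0.44 and 0.40, against 0.14 for H2-D1.

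**Figure D1:**
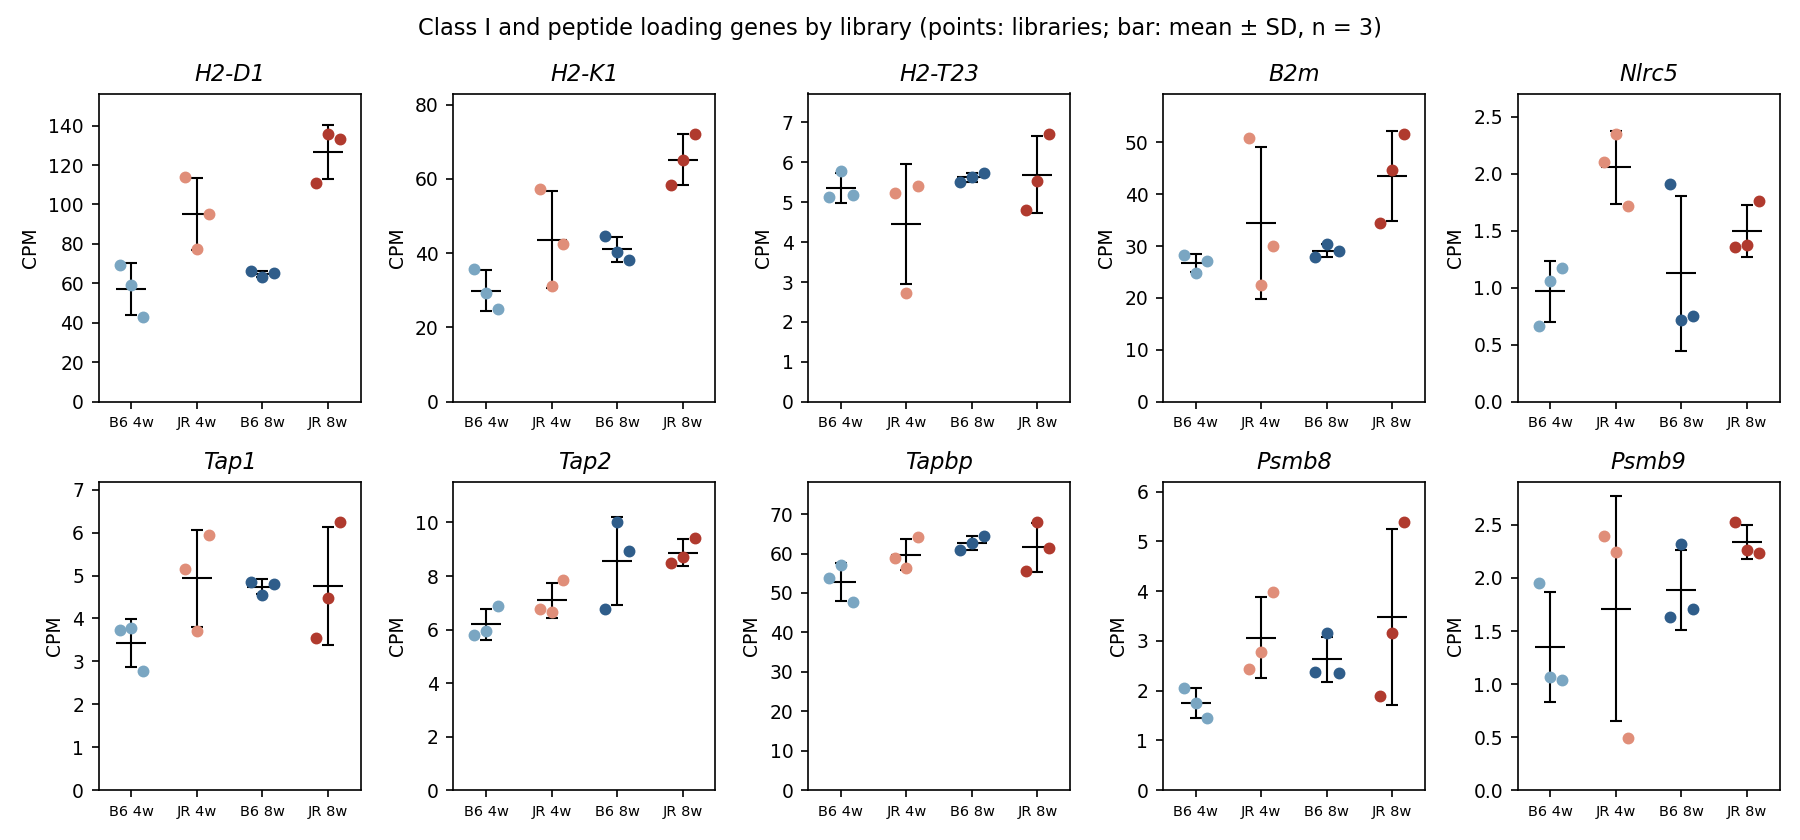
Level of the 10 genes in every library, in CPM on linear axes that start at 0, by group (B6, C57BL/6J; JR, JR5558; 4w and 8w, age in weeks). Points are libraries and bars show the mean ± SD of 3. H2-D1 is the gene whose JR5558 libraries lie above all age-matched C57BL/6J libraries at both ages. The spread inside the JR5558 groups is wide for B2m and Psmb8, and for Psmb9 at 4 weeks but not at 8 weeks (SD of 1.06 and 0.159 CPM).

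The libraries held 18029611 to 23739886 counts, with library scaling factors of 0.978 to 1.02. One feature of the libraries touches the results. Xist, which coats the inactive X, was at 370.4 to 1221 CPM in 9 libraries and at 0 to 0.261 CPM in the 3 JR5558 libraries of 4 weeks, while the Y-linked gene Ddx3y was at 65 to 78.6 CPM in those 3 and at 0 in the other 9. Strain and sex therefore cannot be told apart at 4 weeks, nor age and sex in JR5558, whereas at 8 weeks the libraries of both strains had the female pattern. All 12 listed markers of Müller glia, the glial cells that span the retina, were detected in every library.

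The comparison of strains asks how class I genes differ between JR5558 and age-matched wild-type retina. At 4 weeks, H2-D1 was higher in JR5558 and none of the 10 genes was lower, with 1 of 10 past an adjusted p of 0.05 (edgeR's quasi-likelihood test with Benjamini-Hochberg adjustment over 18334 genes). Over all genes tested, 6.16% were called at this age, 3.27% higher and 2.9% lower. At 8 weeks, H2-D1 and H2-K1 were both higher and again none was lower, so 2 of 10 passed, against 5.18% of all genes, 2.54% higher and 2.63% lower. Of the 10 fold changes, 9 were positive at each age, with a median log2 value of 0.45 at 4 weeks and 0.35 at 8 weeks, and the median over all genes tested was within 0.01 of 0 at both. The 3 JR5558 libraries lay above all 3 controls for 3 of 10 genes at 4 weeks (H2-D1, Psmb8 and Nlrc5) and for 3 at 8 weeks (H2-D1, H2-K1 and B2m). Such separation upward was found in 10.1% of all genes at 4 weeks and 14.9% at 8 weeks.

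H2-D1 encodes a classical heavy chain, one of those that present peptides to CD8 T cells. At 4 weeks its level was 69.1, 59.2 and 43.1 CPM in the C57BL/6J retinas, against 113.7, 77.2 and 95.2 CPM in the JR5558 retinas. The 8-week levels were 66.2, 63.3 and 65.1 CPM in C57BL/6J, against 110.7, 135.9 and 133 CPM in JR5558. The groups did not overlap at either age, and the control libraries of 8 weeks were nearly alike while those of 4 weeks were spread. The fold was 1.67 at 4 weeks (log2 0.74 ± 0.14 SE, edgeR adjusted p = 0.00308) and 1.95 at 8 weeks (log2 0.96 ± 0.14, edgeR adjusted p = 0.000246). The gene stayed past the threshold in all 12 alternative analyses at each age, with log2 values from 0.57 to 0.90 at 4 weeks and from 0.92 to 1.06 at 8 weeks. In the authors' deposited table, the log2 values were 0.74 and 0.97, with adjusted p of 0.000618 and 3.88e-31.

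H2-K1, the other classical heavy chain of the C57BL/6J haplotype, moved in the same direction with more overlap. At 4 weeks it was at 35.7, 29.2 and 24.8 CPM in C57BL/6J, against 57.3, 31.2 and 42.5 CPM in JR5558. At 8 weeks the values were 44.6, 40.3 and 38.2 CPM in C57BL/6J, against 58.4, 65 and 72.2 CPM in JR5558. The second JR5558 retina of 4 weeks lay inside the control range, and at 8 weeks the strains were fully apart. H2-K1 rose 1.59-fold at 8 weeks (log2 0.67 ± 0.16, edgeR adjusted p = 0.02), and its log2 difference at 4 weeks was 0.55 ± 0.17 (edgeR adjusted p = 0.0592). The 8-week call was lost without the second or the third C57BL/6J library (edgeR adjusted p of 0.0798 and 0.0866) and without the second or the third JR5558 library (0.0572 and 0.118). At 4 weeks the difference did pass with DESeq2 (adjusted p = 0.0197), without a filter on low counts (edgeR adjusted p = 3.34e-05), without the first C57BL/6J library (0.0233) and without the second JR5558 library (0.00499).

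B2m encodes the light chain that all class I heavy chains need to reach the cell surface. Its level at 4 weeks was 28.2, 24.8 and 27.2 CPM in C57BL/6J, against 50.9, 22.5 and 30 CPM in JR5558. By 8 weeks the values were 27.8, 30.5 and 29.1 CPM in C57BL/6J, against 34.4, 44.6 and 51.7 CPM in JR5558. A single JR5558 retina carried the 4-week difference, since the other two lay near or below the controls, while at 8 weeks all 3 exceeded every control. The log2 difference was 0.37 ± 0.20 at 4 weeks (edgeR adjusted p = 0.343) and -0.03 without the first JR5558 library, and it passed without a filter on low counts (edgeR adjusted p = 0.0379). It was 0.58 ± 0.20 at 8 weeks, where the call depended on the fit. The adjusted p was 0.12 with all 12 libraries sharing one spread, 0.00276 in edgeR with only the 8-week groups, 1.76e-05 in edgeR without the filter on low counts, and 8.13e-05 in the authors' deposited table. Of the 12 alternatives only 2 passed, the fit of the 8-week groups alone and the fit without the filter. The other 10 did not pass, DESeq2 among them, and with 1 library left out the edgeR adjusted p was 0.0721 to 0.438.

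H2-T23 encodes Qa-1, a nonclassical heavy chain that presents signal peptides to natural killer cell receptors. Its level was 5.13, 5.79 and 5.17 CPM in C57BL/6J, against 5.24, 2.72 and 5.4 CPM in JR5558 at 4 weeks, and 5.51, 5.64 and 5.72 against 4.81, 5.54 and 6.72 CPM at 8 weeks. The strains overlapped at both ages, with log2 differences of -0.26 ± 0.23 and 0.02 ± 0.22 (edgeR adjusted p of 0.597 and 0.984). The 95% interval at 8 weeks ran from -0.45 to 0.49, which lies below the estimates for H2-D1 and H2-K1 at that age; the difference between genes was not tested.

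Nlrc5 encodes the activator that binds the class I promoters as part of the complex on the X and Y boxes. It was at 0.668, 1.06 and 1.18 CPM in C57BL/6J, against 2.1, 2.35 and 1.72 CPM in JR5558 at 4 weeks. At 8 weeks it was at 1.91, 0.719 and 0.749 CPM in C57BL/6J, against 1.36, 1.38 and 1.76 CPM in JR5558. All JR5558 libraries were above all controls at 4 weeks, and at 8 weeks the first control was the highest library of the age. The log2 difference was 1.07 ± 0.40 at 4 weeks, the largest estimate of the 10 genes, and 0.39 ± 0.40 at 8 weeks, and neither passed (edgeR adjusted p of 0.139 and 0.69).

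The peptide transporter and its partner showed no strain difference that passed. Tap1 was at 3.73, 3.77 and 2.78 CPM in C57BL/6J, against 5.16, 3.71 and 5.94 CPM in JR5558 at 4 weeks, a log2 difference of 0.53 ± 0.24 (edgeR adjusted p = 0.231). At 8 weeks its level was 4.86, 4.54 and 4.81 CPM in C57BL/6J, against 3.55, 4.48 and 6.24 CPM in JR5558, where the JR5558 libraries lay on both sides of the controls. That difference was 0.01 ± 0.23 on the log2 scale (95% interval -0.49 to 0.50). Tap2 ranged from 5.79 to 10 CPM over the 12 libraries, with log2 differences of 0.19 ± 0.17 and 0.05 ± 0.16 (edgeR adjusted p of 0.61 and 0.916). Tapbp, measured on far more reads, had the tightest bounds, with a 95% interval of -0.02 to 0.37 at 4 weeks and -0.22 to 0.17 at 8 weeks (edgeR adjusted p of 0.316 and 0.941).

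**Figure D2:**
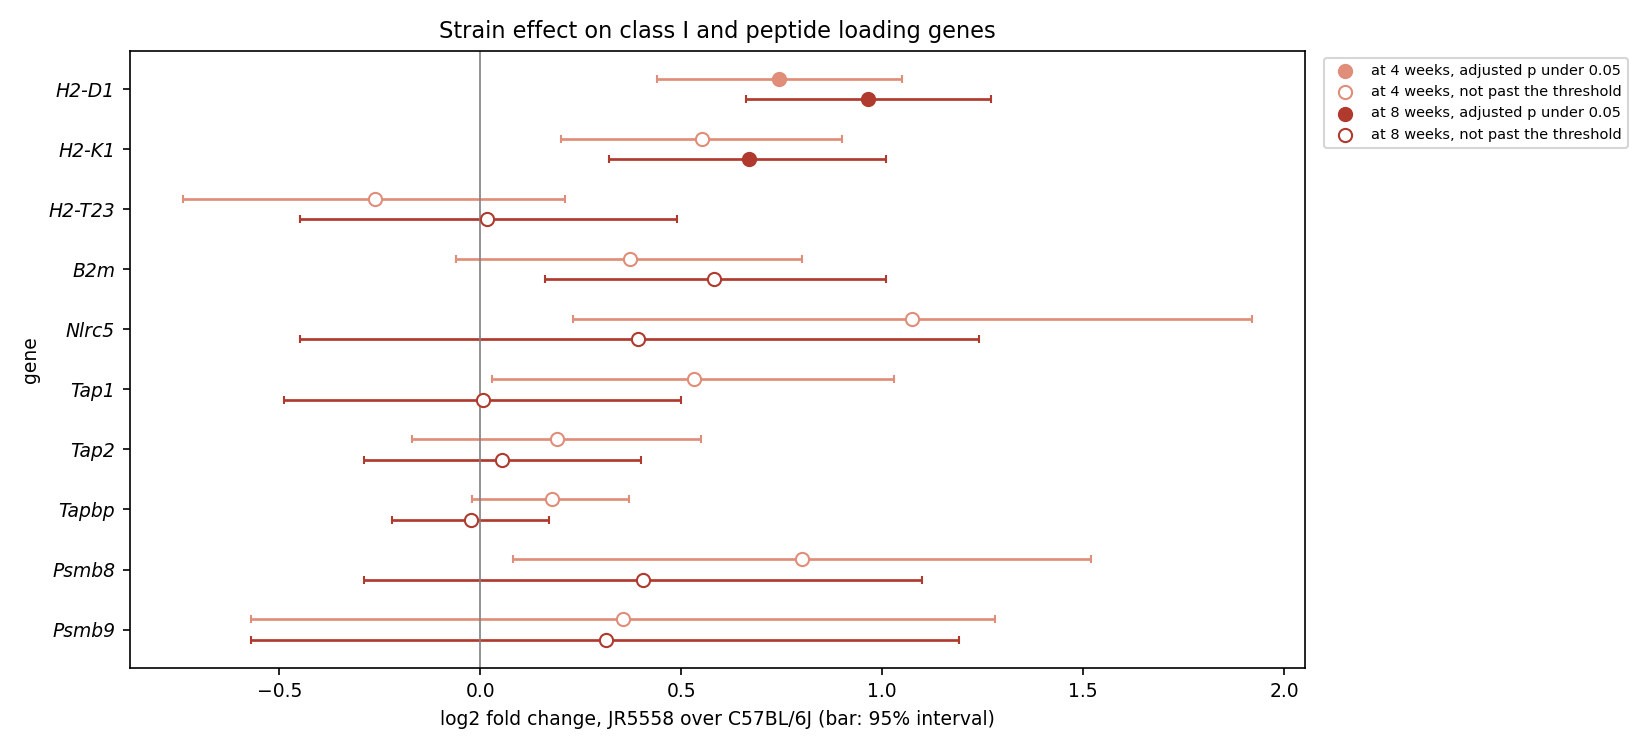
Log2 fold change of JR5558 over C57BL/6J for the 10 genes at 4 weeks (light) and 8 weeks (dark), with 95% intervals from edgeR's quasi-likelihood fit. Filled points passed an adjusted p of 0.05, namely H2-D1 at 0.74 and 0.96 and H2-K1 at 0.67 at 8 weeks, and the intervals of Psmb8, Psmb9 and Nlrc5 are the widest.

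Psmb8 and Psmb9 replace the catalytic subunits Psmb5 and Psmb6 in the immunoproteasome, which cuts more peptides with ends that suit class I grooves. Psmb8 was at 2.06, 1.75 and 1.46 CPM in C57BL/6J, against 2.43, 2.77 and 3.98 CPM in JR5558 at 4 weeks. The values at 8 weeks were 2.38, 3.15 and 2.35 CPM in C57BL/6J, against 1.9, 3.15 and 5.39 CPM in JR5558. The strains were apart at 4 weeks but not at 8 weeks, where the third JR5558 retina was the highest of all 12 and the first was below all controls of that age. The log2 differences were 0.80 ± 0.34 and 0.41 ± 0.33 (edgeR adjusted p of 0.204 and 0.59), and the latter became -0.05 without the third JR5558 library. Psmb9 was at 1.95, 1.06 and 1.04 CPM in C57BL/6J, against 2.39, 2.25 and 0.491 CPM in JR5558 at 4 weeks, with the third JR5558 library the lowest of all. Its log2 differences were 0.36 ± 0.44 and 0.31 ± 0.42 (edgeR adjusted p of 0.729 and 0.774).

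The change that passed in the proteasome was in a constitutive subunit. Psmb5, the chymotrypsin-like subunit whose place Psmb8 takes, was at 82.4, 72.8 and 58.7 CPM in C57BL/6J, against 34.5, 33.8 and 42.5 CPM in JR5558 at 4 weeks. The 8-week retinas held 72.9, 72 and 81.7 CPM in C57BL/6J, against 43.3, 47 and 48.3 CPM in JR5558. Every JR5558 library was below every control at both ages. Psmb5 fell by 0.95 ± 0.12 on the log2 scale at 4 weeks and by 0.71 ± 0.12 at 8 weeks (edgeR adjusted p of 2.57e-05 and 0.000612), and it stayed past the threshold in all 12 alternative analyses at each age. Of the 8 other proteasome subunits listed, none rose and only Psmb5 fell past the threshold at either age in the main fit. With only the groups compared, Psmb7 passed as higher at 8 weeks (log2 0.25, edgeR adjusted p = 0.032). By unadjusted p under 0.05, 0 were higher and 1 lower at 4 weeks, and 2 higher and 2 lower at 8 weeks, against 19.1% and 17.4% of all genes tested. The log2 differences of Psmb6 were 0.00 ± 0.10 and 0.17 ± 0.10, those of Psmb7 0.05 ± 0.11 and 0.25 ± 0.11, and those of Psmb10, the third immunoproteasome subunit, 0.22 ± 0.17 and 0.32 ± 0.16.

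The ratio of Psmb8 to Psmb5 on the RPKM scale was 0.0064 to 0.00665 in the C57BL/6J retinas of 4 weeks and 0.0188 to 0.0249 in the JR5558 retinas of that age, with no overlap. At 8 weeks it was 0.00766 to 0.0116 in C57BL/6J and 0.0116 to 0.0297 in JR5558, where the lowest JR5558 library met the highest control. Of the 2 genes in this ratio only Psmb5 passed the test between strains. The ratios of Psmb9 to Psmb6 (0.00594 to 0.00963 against 0.00256 to 0.015 at 4 weeks) and of Psmb10 to Psmb7 (0.282 to 0.369 against 0.31 to 0.407) overlapped between strains, and so they did at 8 weeks. In every library Psmb8 stood far below Psmb5 per length, whereas Psmb10 was 0.282 to 0.414 of Psmb7.

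**Figure D3:**
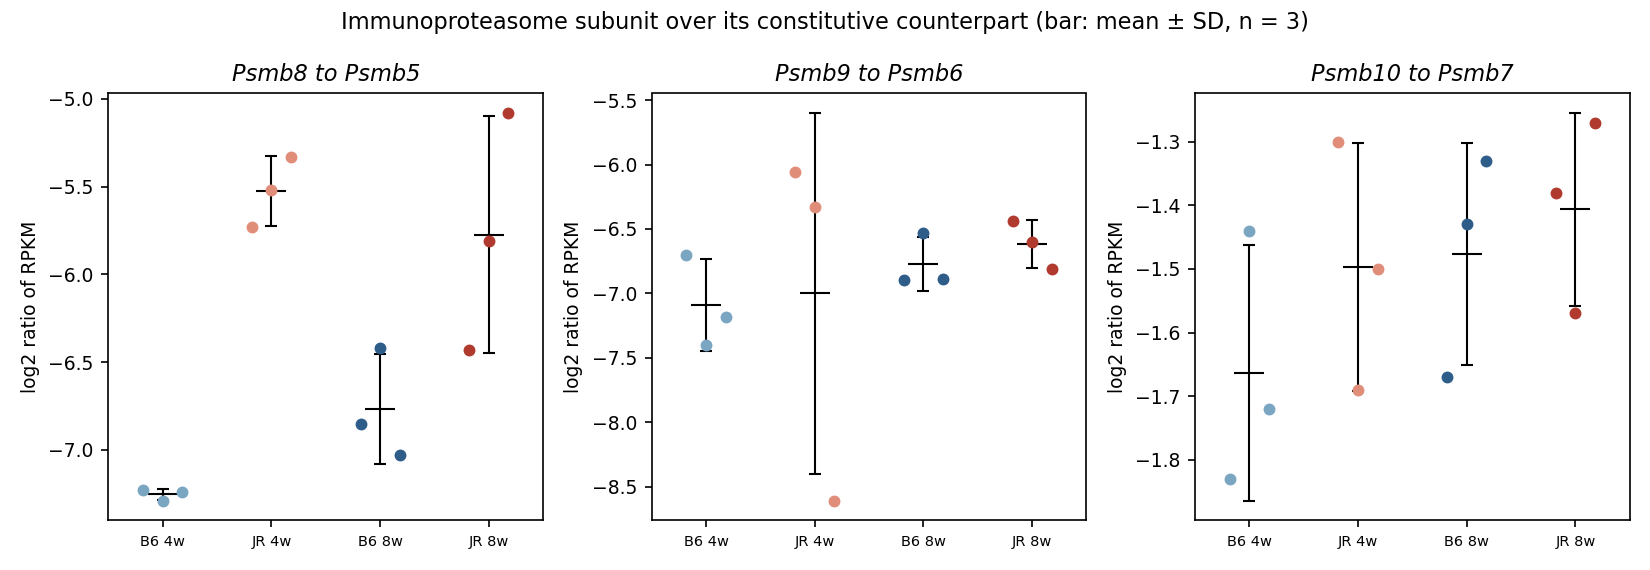
Log2 ratio of each immunoproteasome subunit to the constitutive subunit it replaces, from RPKM values, in every library. Points are libraries, bars the mean ± SD of 3, and the vertical scales differ between panels. The Psmb8 to Psmb5 ratio averages -7.25 in C57BL/6J and -5.53 in JR5558 at 4 weeks, without overlap, and the other 2 ratios overlap.

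Heavy chain genes are near-identical in stretches, and how reads shared by several of them were counted is not given in the sources used here. Of the 50-base stretches of H2-D1 transcripts, 12.8% also occur in another gene, chiefly H2-Q1, H2-K1 and H2-Q7, as do 9.63% of those of H2-K1 and 13.6% of those of H2-T23, while none of B2m, Psmb9 or Nlrc5 does. The haplotype of JR5558 at these genes is not given either, and its part in the values was not tested. When the counts of 17 heavy chain genes were added before the fit, the sum was higher in JR5558 by a log2 value of 0.50 ± 0.13 at 4 weeks and 0.72 ± 0.13 at 8 weeks (edgeR adjusted p of 0.0297 and 0.00238). H2-D1 and H2-K1 made up 73.3% to 80.3% of that sum in the C57BL/6J libraries and 84.8% to 87.7% in the JR5558 libraries. Of the 20 other heavy chain genes listed, 12 were tested and none passed in either direction at either age by edgeR, with a median log2 difference of 0.09 at 4 weeks and -0.07 at 8 weeks. At an unadjusted p under 0.05 there were 1 higher and 3 lower at 4 weeks and 4 higher and 2 lower at 8 weeks, where 19.1% and 17.4% of all genes tested were under it in either direction, and DESeq2 called 1 higher and 2 lower at 4 weeks and none at 8 weeks. The ratio of H2-D1 to H2-K1 on the RPKM scale was 1.98 to 2.31 in C57BL/6J and 2.26 to 2.82 in JR5558 at 4 weeks, and 1.69 to 1.94 against 2.1 to 2.38 at 8 weeks, where the strains did not overlap. The ratio of B2m to H2-D1 at 8 weeks was 1.26 to 1.44 in C57BL/6J and 0.932 to 1.17 in JR5558, and the strains overlapped at 4 weeks, at 1.23 to 1.89 and 0.875 to 1.34.

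Beyond the 10 genes, few genes of the pathway passed between strains. Of 11 other loading and trimming factors, none rose and 1 fell at each age, Lnpep, an aminopeptidase that trims peptides in endosomes, by 0.46 ± 0.09 and 0.34 ± 0.09 on the log2 scale (edgeR adjusted p of 0.00241 and 0.0293). The 8-week call of Lnpep was lost without any 1 of the 6 libraries of that age (edgeR adjusted p of 0.0509 to 0.174) and with the replicate number as a block (0.0535). Of 23 regulators of class I genes, 1 fell at 4 weeks and 1 rose at 8 weeks. Nfya, a subunit of the factor that binds the CCAAT box, fell by 0.34 ± 0.08 (edgeR adjusted p = 0.0184), and Ifnar1, a chain of the type I interferon receptor, rose by 0.32 ± 0.08 (edgeR adjusted p = 0.0176). Nfya no longer passed without the second C57BL/6J library (edgeR adjusted p = 0.0516) or the first or second JR5558 library (0.0827 and 0.055). Nor did Nfya pass with only the groups compared (edgeR adjusted p = 0.114). Ifnar1 no longer passed without 5 of the 6 libraries of 8 weeks, all but the first C57BL/6J library (edgeR adjusted p of 0.0583 to 0.0872). Of 28 interferon-stimulated genes tested, among them Psmb8, none passed at either age by edgeR or DESeq2, with a lowest edgeR adjusted p of 0.104 at 4 weeks and 0.147 at 8 weeks. EdgeR called 1 at 4 weeks without the second JR5558 library, and at 8 weeks 1 without a filter on low counts and 2 with only the groups compared. At an unadjusted p under 0.05 there were 4 higher and 1 lower at 4 weeks and 6 higher and 1 lower at 8 weeks, against 19.1% and 17.4% of all genes tested. Their median log2 difference was 0.24 at 4 weeks, with 22 of 28 positive, and 0.19 at 8 weeks, with 21 positive, against medians within 0.01 of 0 over all genes tested.

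Whole retina holds several cell types, and markers of some moved in the same libraries as the heavy chains. In bulk tissue, more cells of one type and more RNA per cell cannot be told apart. The summed level of 18 microglia and macrophage markers was 82.5 to 99.3 CPM in C57BL/6J, against 110 to 139 CPM in JR5558 at 4 weeks, and 88.2 to 90.7 against 132 to 157 CPM at 8 weeks, with no overlap at either age and none of the 18 at 0 in all libraries. The log2 differences ran from -1.81 to 1.45 at 4 weeks, 16 positive and 2 negative, and from -0.59 to 2 at 8 weeks, 15 positive and 3 negative. At 4 weeks 10 were higher and 1 lower at an unadjusted p under 0.05, and at 8 weeks 13 and 0, against 19.1% and 17.4% of all genes tested. Of these 18 markers, 6 rose at 4 weeks and 7 at 8 weeks past the adjusted threshold and none fell past it. The 4-week count was 1 without the second C57BL/6J, the first JR5558 or the third JR5558 library or with only the groups compared, and 2 without the third C57BL/6J library, and the 8-week count ran from 6 to 11 over the alternatives. The complement genes C1qb and C1qc, which resident microglia express strongly, rose by 0.81 ± 0.21 and 1.02 ± 0.22 at 4 weeks (edgeR adjusted p of 0.0235 and 0.00789), and C1qb by 1.16 ± 0.20 at 8 weeks (edgeR adjusted p = 0.00137). The 4-week call of C1qb was lost in 4 of the 6 analyses that left out 1 library, those without the second or the third C57BL/6J or the first or the third JR5558 library (edgeR adjusted p of 0.0591 to 0.118). Fitting only the groups compared also ended that call (edgeR adjusted p = 0.0958). Csf1r, the receptor that microglia need for survival, and Laptm5, a lysosomal membrane protein of leukocytes, rose by 0.67 ± 0.13 and 0.94 ± 0.18 at 8 weeks (edgeR adjusted p of 0.00289 and 0.00262). Cx3cr1 differed by 0.40 ± 0.20 and 0.23 ± 0.20, and the leukocyte marker Ptprc by 0.04 ± 0.53 and -0.49 ± 0.56, and neither passed. The part of these cells in the class I result was not tested.

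Class II genes, which mark professional antigen-presenting cells, were low throughout. The summed level of the 10 listed was 9.36 to 10.4 CPM in C57BL/6J, against 9.13 to 15.7 CPM in JR5558 at 4 weeks, and 11.6 to 12.8 against 12.5 to 14.7 CPM at 8 weeks. Of 7 tested, Cd74, the class II invariant chain, and H2-Aa rose at 4 weeks, by 1.85 ± 0.34 and 1.88 ± 0.54 (edgeR adjusted p of 0.00198 and 0.042), and none passed at 8 weeks by edgeR or DESeq2, with 1 higher at an unadjusted p under 0.05, against 17.4% of all genes. H2-Aa rested on 5 to 8 reads per C57BL/6J library of 4 weeks, and its call was lost without any of those 3 libraries or without the first or the third JR5558 library (edgeR adjusted p of 0.0589 to 0.151). Fitting only the groups compared ended the call of H2-Aa as well (edgeR adjusted p = 0.0943). Lymphocytes, the cells that read class I molecules, left almost no trace. The 18 markers of T, B and natural killer cells summed to 1.02 to 2.36 CPM over all libraries and 17 of them never reached 1 CPM. Cd3e, Cd8b1, Gzmb, Prf1 and Ncr1, which include the defining genes of T cells, CD8 T cells, cytotoxic granules and natural killer cells, were at 0 in all 12.

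**Figure D4:**
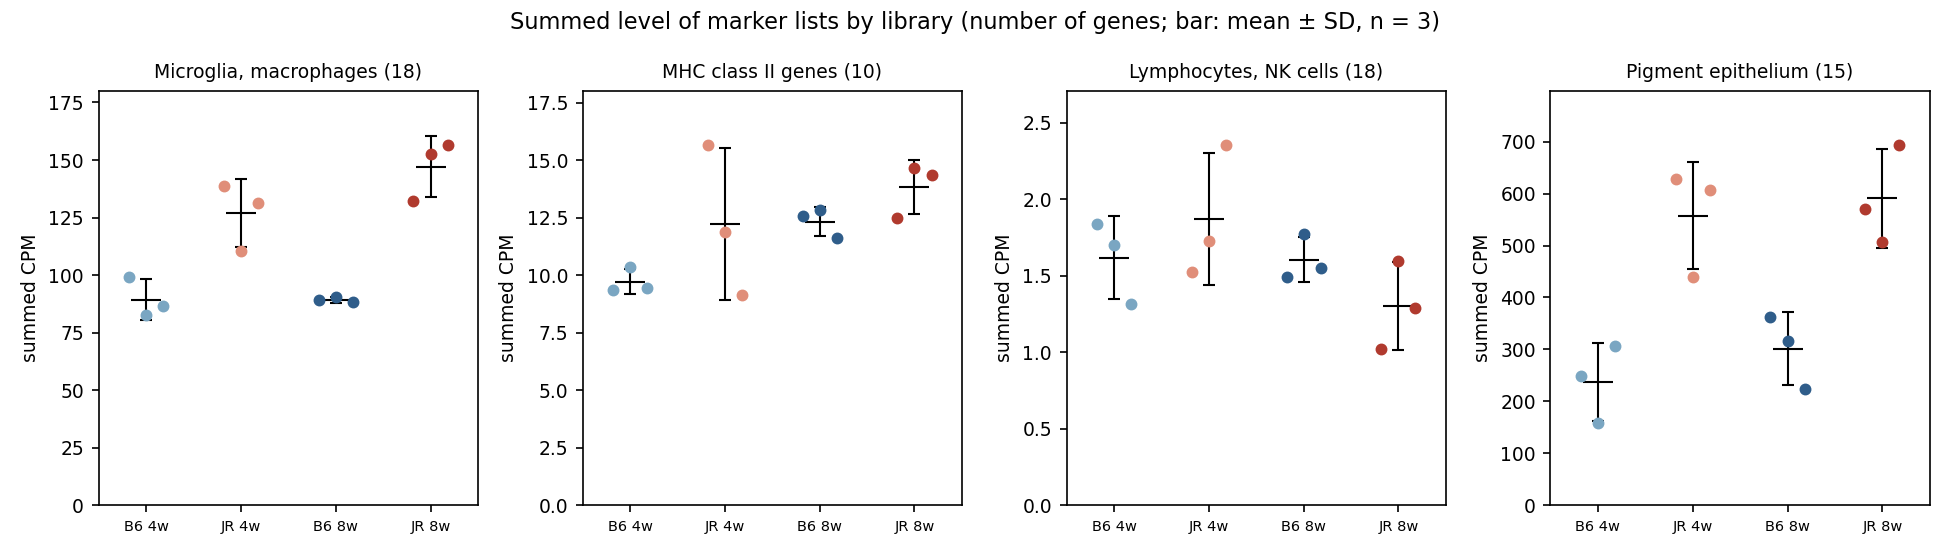
Summed level of 4 marker lists in every library, in CPM on linear axes from 0. Points are libraries and bars the mean ± SD of 3. Microglia and macrophage markers and pigment epithelium markers are higher in JR5558 at both ages without overlap, and lymphocyte markers stay at or below 2.36 CPM.

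Markers of the pigment epithelium, a layer that can stay attached to a dissected retina, moved with strain as well. Their sum over 15 genes was 158 to 307 CPM in C57BL/6J, against 439 to 627 CPM in JR5558 at 4 weeks, and 224 to 363 against 507 to 694 CPM at 8 weeks, and Rpe65, the visual cycle isomerase, was at 3.14 to 24 CPM in the controls of 4 weeks and 28 to 51 CPM in JR5558. Of the 15, 12 rose at 4 weeks and 3 at 8 weeks. The 4-week count was 7 without the first C57BL/6J library or with DESeq2, 5 without the first or the third JR5558 library and 4 with only the groups compared. The 8-week count was 1 without the second C57BL/6J library, 5 with the replicate block, 6 with DESeq2, 12 with only the groups compared and 13 without a filter on low counts. Pmel, a protein of pigment granules, rose by 1.43 ± 0.21 and 1.00 ± 0.22 (edgeR adjusted p of 0.000229 and 0.00763), the 8-week call being lost without the second C57BL/6J library (0.0526). Krt18, an epithelial keratin, rose by 0.62 ± 0.09 and 0.33 ± 0.09 (edgeR adjusted p of 0.000183 and 0.042), and its 8-week call was lost with the replicate block and without any 1 library of that age but the first JR5558 (0.0679 to 0.181). The pigment enzymes Tyrp1, by 1.12 ± 0.20 at 4 weeks, and Dct, by 1.11 ± 0.24 at 8 weeks, also rose (edgeR adjusted p of 0.00168 and 0.00721).

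Of 12 Müller glia markers, 8 rose at 4 weeks and 6 at 8 weeks and none fell. When only the groups compared were fitted, 5 and 10 were called. With 1 library left out the counts were 6 to 8 at 4 weeks and 4 to 5 at 8 weeks. Whether these transcripts came from Müller glia alone was not tested. Crym, a thyroid hormone binding protein, rose by 1.07 ± 0.11 and 0.87 ± 0.11 (edgeR adjusted p of 1.74e-06 and 2.51e-05), and Rlbp1, a retinoid carrier, by 0.72 ± 0.08 and 0.61 ± 0.08 (3.64e-06 and 2.86e-05). Kcnj10, a potassium channel, rose by 0.58 ± 0.08 at 4 weeks and Car14, a carbonic anhydrase, by 0.52 ± 0.10 at 8 weeks (edgeR adjusted p of 8.96e-05 and 0.00251). Of 15 endothelial markers, Kdr, the main receptor for vascular endothelial growth factor, rose by 0.72 ± 0.07 and 0.56 ± 0.07 (edgeR adjusted p of 1.68e-06 and 4.17e-05) and Plvap, a protein of vessel fenestrae, by 0.84 ± 0.15 and 0.62 ± 0.15 (0.00165 and 0.0157). Kdr reached 297.5 CPM in its highest library, against 100.8 CPM for the listed marker Flt1 and 16.4 CPM for Pecam1. Whether Kdr transcripts came from endothelium alone was not tested. The tight junction gene Cldn5 fell by 0.65 ± 0.14 at 8 weeks (edgeR adjusted p = 0.00918). Pecam1 did not pass at either age in the main fit, but passed as lower at 8 weeks with only the groups compared (log2 -0.38, edgeR adjusted p = 0.0419). Over the 15 markers, 8 differences were positive and 7 negative at 4 weeks, with a median of 0.05. At 8 weeks 4 were positive and 11 negative, with a median of -0.11. The 8-week call of Plvap was lost without the second or the third library of either strain (edgeR adjusted p of 0.0584 to 0.0873) and that of Cldn5 without the second C57BL/6J or the first or the third JR5558 library (0.0539 to 0.0719). At 8 weeks the endothelial calls numbered 1 without the second C57BL/6J or the third JR5558 library and 6 with only the groups compared.

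Photoreceptor markers moved with strain too, mostly downward at 8 weeks. Of 13 rod and cone markers, 1 rose and 2 fell at 4 weeks, and 1 rose and 3 fell at 8 weeks, when 12 of the 13 differences were negative. Gnat1, the rod transducin subunit, fell by 0.34 ± 0.06 at 8 weeks (edgeR adjusted p = 0.00216), and Pde6b, a subunit of the rod phosphodiesterase, by 0.28 ± 0.07 (0.0141). The cone genes Opn1mw and Arr3 fell by 0.40 ± 0.10 and 0.45 ± 0.12 at 4 weeks (edgeR adjusted p of 0.0173 and 0.0255), while Opn1sw rose by 0.36 ± 0.07 and 0.30 ± 0.07 (0.00259 and 0.0114). Gnat1 at 8 weeks and Opn1sw at 4 weeks passed in all 12 alternatives. The call of Pde6b was lost without any 1 library of 8 weeks but the first C57BL/6J (edgeR adjusted p of 0.0556 to 0.123), and that of Opn1sw at 8 weeks without the first library of either strain (0.0813 and 0.104). At 4 weeks Opn1mw was lost without the third C57BL/6J library and Arr3 without the second C57BL/6J or the third JR5558 library, and both without the first JR5558 library and with only the groups compared (edgeR adjusted p of 0.0595 to 0.13). The count over the 13 markers was 1 at 4 weeks without the first JR5558 library or with only the groups compared, and at 8 weeks it was 2 without any 1 library but the second C57BL/6J and 8 with only the groups compared. The share of any of these cells in the class I values was not tested.

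Between 4 and 8 weeks, none of the 10 genes passed in either strain by edgeR. At an unadjusted p under 0.05 there were 3 in C57BL/6J and 2 in JR5558, all higher at 8 weeks, against 14.4% and 16.9% of all genes tested, and DESeq2 called 0 and 1. In C57BL/6J, where 0.431% of all genes were called, all 10 estimates were positive, from 0.07 for H2-T23 to 0.58 ± 0.35 for Psmb8, with a median of 0.35 and adjusted p of 0.219 to 0.922 by edgeR. The 8-week libraries lay above all 4-week libraries for H2-K1, Tap1, Tapbp and Psmb8, 4 of 10 genes, against 8.98% of all genes. In JR5558, where 1.51% of genes were called, 8 estimates were positive with a median of 0.33, and H2-K1 came closest at 0.58 ± 0.16 (edgeR adjusted p = 0.0835), followed by H2-D1 at 0.41 ± 0.14 (edgeR adjusted p = 0.149). H2-K1 passed with DESeq2 (adjusted p = 0.0167), and H2-D1 had an adjusted p of 0.0121 in the authors' deposited table. The older libraries lay above the younger for H2-K1 and Tap2, against 12% of all genes. Of 5 blood cell markers, 2 fell with age in JR5558, the globin genes Hbb-bs by 1.35 ± 0.31 and Hba-a1 by 1.22 ± 0.30 (edgeR adjusted p of 0.0355 and 0.0432). The estimates of all 5 were negative, with a median log2 value of -1.28, against -0.00936 over all genes tested. The call of Hba-a1 was lost without any 1 of the 6 JR5558 libraries, and that of Hbb-bs without any but the third of 4 weeks (edgeR adjusted p of 0.0503 to 0.215). Their part in the class I values was not tested. Since the JR5558 libraries differ in sex between ages, age and sex cannot be told apart there. The strain and age comparisons share libraries, so the 4-week C57BL/6J group that is low for most of the 10 genes enters both.

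The strain effect was not shown to differ between ages for any of the 10 genes. Only the JR5558 libraries of 4 weeks had the male pattern, so age and sex cannot be told apart in this comparison either. The difference of the log2 strain effects (8 weeks minus 4 weeks) was 0.22 ± 0.20 for H2-D1, 0.12 ± 0.23 for H2-K1 and 0.21 ± 0.29 for B2m, and -0.53 ± 0.33 for Tap1, -0.40 ± 0.47 for Psmb8 and -0.68 ± 0.57 for Nlrc5. The adjusted p ran from 0.788 to 0.996 by edgeR, 0 of the 10 had an unadjusted p under 0.05, against 7.19% of all genes tested, DESeq2 called 0, and 0.0927% of all genes were called. The 95% interval of -0.21 to 0.65 for H2-D1 and of -1.88 to 0.52 for Nlrc5 leaves room for sizeable differences either way.

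Across the 12 libraries the 10 genes did not move as one block. Over the 45 pairs, Pearson correlations of log2 CPM ran from -0.37 to 0.92 with a median of 0.42, as a description of libraries that share group and preparation. H2-D1 and H2-K1 were the most alike pair at 0.92, and at 0.90 after each group's mean was removed, so their likeness holds among retinas of one group. H2-K1 with B2m followed at 0.87, and Tap1 with Psmb8, neighbours on chromosome 17, at 0.84. The lowest library for 5 of the genes was the third C57BL/6J retina of 4 weeks, and the highest for 5 was the third JR5558 retina of 8 weeks, with mean standardised levels of -1.15 and 1.24. Nlrc5, the activator, had a correlation of 0.46 with H2-D1 over all libraries and of -0.25 within groups.

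**Figure D5:**
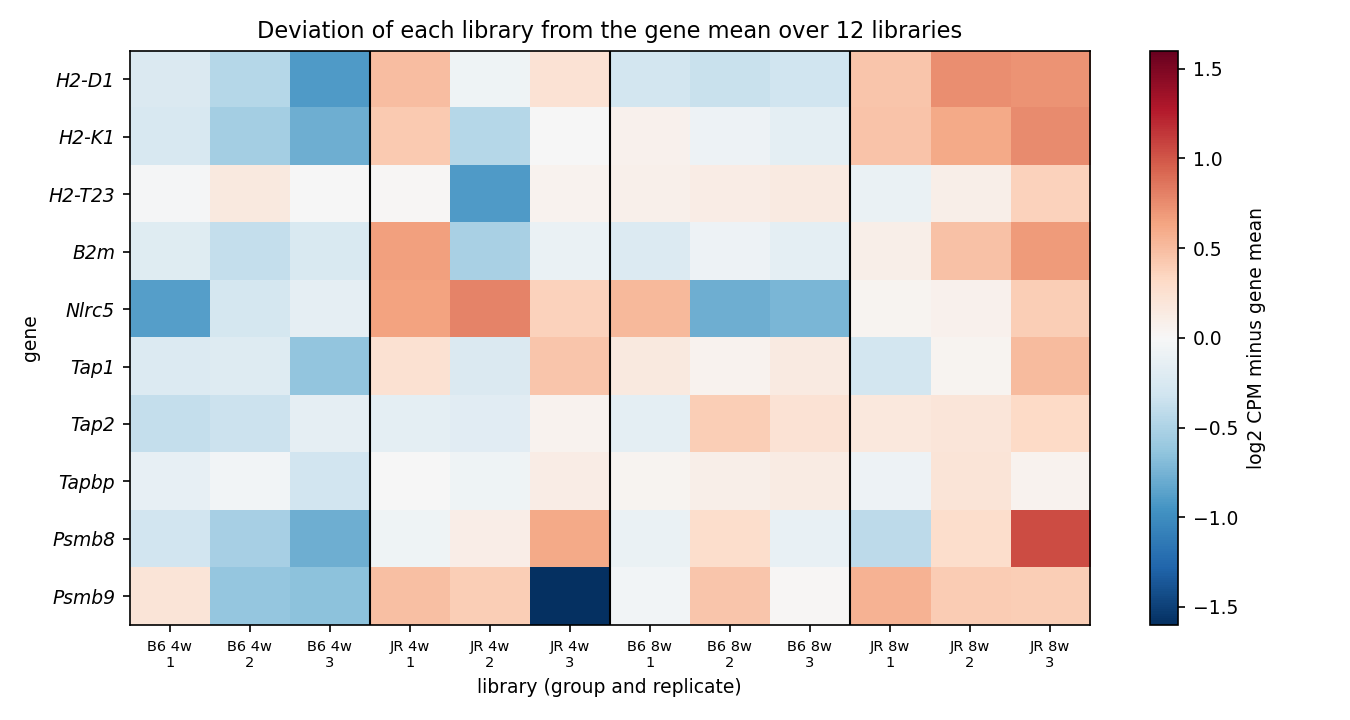
Deviation of each library from the gene's mean over 12 libraries, in log2 CPM, with genes in rows and libraries in columns ordered by group and replicate. Red is above and blue below the mean. H2-D1 and H2-K1 are darkest red in the second and the third JR5558 retinas of 8 weeks and B2m in the third of 8 weeks and the first of 4 weeks, and the deepest blue is Psmb9 in the third JR5558 retina of 4 weeks, at 0.491 CPM.

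Outside the 10 genes, the 5 genes whose log2 CPM was closest to the mean standardised level of the class I genes, out of 13411 candidates, were Chrm4 (Pearson 0.953), Gnai2 (0.948), Cd63 (0.945), Agfg2 (0.918) and Ctsd (0.913) over the 12 libraries. Ctsd, the lysosomal protease cathepsin D, rose in JR5558 at both ages, by 0.38 ± 0.08 and 0.27 ± 0.08 (edgeR adjusted p of 0.00363 and 0.0425), the 8-week call being lost without any 1 of the 6 libraries of that age (0.0635 to 0.245). Cd63, a membrane protein of late endosomes, averaged 48.7 ± 1.24 CPM in C57BL/6J, against 57.6 ± 3.71 CPM in JR5558 at 4 weeks, and 61.1 ± 2.79 and 70.9 ± 9.95 CPM at 8 weeks (SD, n = 3), without passing. These likenesses are descriptions of 12 libraries that share groups. The 5 genes were picked by likeness in the same libraries, so the strain tests of Ctsd and Cd63 are not independent of that choice.

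By the deposited positions, 8 of the 10 genes fall on chromosome 17 in the MHC region, B2m on chromosome 2 and Nlrc5 on chromosome 8. H2-K1 is at chr17:34214991-34219321, Tapbp at chr17:34134873-34148266, Psmb9 at chr17:34400961-34406738, Tap1 at chr17:34406527-34416199, Psmb8 at chr17:34416695-34420428, Tap2 at chr17:34422501-34435295, H2-D1 at chr17:35481706-35486475 and H2-T23 at chr17:36340665-36343747. B2m is at chr2:121978167-121983564 and Nlrc5 at chr8:95160984-95253900. The submitters' processing notes name mm10, but none of the 10 positions equals that of the GENCODE M21 annotation of GRCm38, and these positions, of unsettled build, are not on the scale of the promoter coordinates. Whether reads were counted by strand is not given in the sources used here. H2-T23 lies within A930015D03Rik on the opposite strand over 3083 bases, Tap1 and Psmb9 overlap by 212 bases, and Tapbp overlaps Zbtb22 on the same strand over 3422 bases, so reads in these stretches cannot be assigned with certainty. H2-D1 and H2-K1 overlap no other annotated gene, and B2m overlaps Patl2, which held 20 counts in all.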

How the data were processed

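Poly-A RNA of 12 whole retinas, 3 separate mice in each of 4 groups, was sequenced as paired-end reads. The submitters' processing notes list featureCounts 1.5.0-p3, HISAT2 2.0.5 and fastp, and mm10 as the build; handling of strand and of reads matching several genes is not given in the sources used here. Per the file headers, the deposited table holds raw counts per gene and library, gene lengths in bases, and the authors' log2 fold changes and adjusted p-values, whose test is not given in the sources used here.

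The counts were analysed in R 4.3.3 with edgeR 4.0.16. Genes were kept by filterByExpr (minimum count 10, total 15), libraries scaled by TMM, and 1 mean per group fitted to all 12 libraries. The quasi-likelihood test (2-sided) was adjusted by Benjamini-Hochberg over 18334 genes, with a threshold of 0.05. Intervals use 95% limits. CPM and RPKM were computed from the deposited counts, RPKM with the deposited lengths, and log2 CPM for correlations used a prior count of 2. The steps were tested on simulated data. Alternatives were RLE scaling, no filter, at least 1 CPM in 3 libraries, DESeq2 1.42.0, a fit of the compared groups alone, a block for the replicate number, each library left out, and summed heavy chain counts. Promoter letters were matched with Python 3.11.15.

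All 10 class I genes are named in every comparison. From each other list up to 3 genes past the threshold in a strain comparison are named by adjusted p, with 6 defining markers (some genes that this rule names are not reported here), the constitutive proteasome subunits, the 5 most alike genes of at least 1 CPM, Xist and Ddx3y. The genes and lists were chosen with earlier results of these data known.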

Additional observations from a re-analysis of the deposited data

How the results depend on the processing

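H2-D1 kept its direction and its call in all 12 alternatives at both ages. Over the 10 genes and 5 comparisons, 604 of 644 alternative values kept direction and side of the threshold, 4 lost a call (all H2-K1 at 8 weeks), 13 gained one and 23 changed sign.

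The number of the 10 genes called at 4 weeks was 3 without a filter, 2 with DESeq2 and 1 to 2 with 1 library left out. At 8 weeks it was 3 without a filter and with only the groups compared (B2m added), and 1 to 2 with 1 library left out. For age it was 1 in C57BL/6J without a filter, and in JR5558 2 without a filter, 1 with DESeq2 and 0 to 2 with 1 library left out. Over all genes tested, fitting only the groups compared gave 558 calls at 4 weeks, 2183 at 8 weeks, 22 for age in C57BL/6J and 544 for age in JR5558. Without a filter there were 445 (age in C57BL/6J), 854 (age in JR5558) and 96 (difference between ages), and with DESeq2 407, 746 and 63. With 1 library left out the counts were 814 to 1162 (4 weeks), 538 to 649 (8 weeks), 16 to 125 (age in C57BL/6J), 63 to 689 (age in JR5558) and 6 to 38 (difference). The cause was not tested.

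With the replicate number as a block, 1 and 2 of the 10 genes were called at 4 and 8 weeks, out of 1010 and 845 genes, and 0 in the other comparisons. The numbers do not pair the mice: the deviations of same-numbered libraries correlated at -0.09 to 0.09, with 0 of 12 over 0.1. Under the block, the log2 strain difference of Tap1 at 8 weeks was -0.0063, the difference between ages of Psmb9 0.0408 and the 4-week difference of Ptprc -0.0299. The block ended the call of Lnpep at 8 weeks and of H2-Aa at 4 weeks among the genes named.

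With 1 library left out, log2 estimates short of the threshold changed sign in these cases, given by lowest and highest value. At 4 weeks B2m ran from -0.0312 to 0.5991, Psmb6 from -0.1059 to 0.1027, Psmb7 from -0.0607 to 0.1925 and Ptprc from -0.2565 to 0.3509. At 8 weeks Tap1 ran from -0.2358 to 0.1856, Tap2 from -0.0927 to 0.1811, Tapbp from -0.0926 to 0.0526, Psmb8 from -0.0528 to 0.7063 and H2-T23 from -0.117 to 0.132. For age, Nlrc5 in C57BL/6J ran from -0.4058 to 0.4601, and in JR5558 Tap1 from -0.2979 to 0.124, Tapbp from -0.0228 to 0.1224 and Psmb8 from -0.2712 to 0.489. For the difference between ages, H2-K1 ran from -0.0727 to 0.3739, B2m from -0.0168 to 0.6187 and Psmb9 from -0.4716 to 0.3009. Nlrc5 and Psmb9 rested on at most 58 reads per library.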

Other observations

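Among the nonclassical heavy chains, 3 genes are named here outside the naming rule, picked with their values in view. H2-T22, a nonclassical heavy chain recognised by some gamma delta T cells, was at 5.85, 7.65 and 7.29 CPM in C57BL/6J and at 3.84, 5.86 and 1.18 CPM in JR5558 at 4 weeks. At 8 weeks it was at 7.8, 8.91 and 8.29 CPM in C57BL/6J and at 4.62, 5.19 and 4.72 CPM in JR5558, so all JR5558 libraries of that age lay below all controls. Its log2 differences were -0.94 ± 0.32 and -0.78 ± 0.31 (edgeR adjusted p of 0.101 and 0.187), opposite in sign to those of H2-D1 and H2-K1. H2-T24 differed by -0.97 ± 0.31 at 4 weeks (edgeR adjusted p = 0.0735) and -0.52 ± 0.31 at 8 weeks (edgeR adjusted p = 0.431). H2-Bl held 0 to 3 reads per C57BL/6J library and 3 to 21 per JR5558 library at 4 weeks, and 0 to 5 and 8 to 17 at 8 weeks (edgeR adjusted p of 0.0563 and 0.165), too few for a fold. None of the 3 passed by edgeR's quasi-likelihood test. The part of the haplotype of JR5558, or of reads shared between heavy chains, in these values was not tested.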
